A study of Mus musculus with 9 samples.

Results

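Microglia and perivascular macrophages are the resident macrophages of the brain. Microglia lie in the parenchyma and touch the vessel wall with their processes, whereas perivascular macrophages sit in the space between the vessel and the layer of astrocyte endfeet. Both need signalling through the receptor Csf1r. Perivascular macrophages are known for the scavenger receptors Mrc1 and Cd163, the hyaluronan receptor Lyve1 and the chemokine Pf4, and microglia for the fractalkine receptor Cx3cr1, the purinergic receptor P2ry12 and the membrane protein Tmem119. Csf1r and Aif1, an actin-binding protein also called Iba1, are found in both cell types. Each of the other genes is grouped by the cell type it is best known for. Whether it was also present in the other cell type was not tested.

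These 9 genes were followed by name, out of 22075 genes with counts, in astrocyte ribosome pulldowns (TRAP) in which neither cell type is the target. They are listed by name for their known cell type, although earlier results of these data were known. The mice were of strain Aldh1L1 JD130, genotype tg:Aldh1L1-L10aGFP, and 2 months old. Every library of both groups carried this transgene, in which the astrocyte gene Aldh1l1 drives a GFP-tagged ribosomal protein. In the 3 whole astrocyte TRAP libraries the tagged ribosomes were pulled down from brain, 1 brain each, and in the 6 endfeet TRAP libraries from purified brain vessels of several pooled mice, to which endfeet remain attached. A pulldown from mice without the transgene was not analysed here, so RNA on astrocyte ribosomes and RNA of other cells carried along with the vessels cannot be told apart in these values.

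Gene totals were 35956972 to 43487888 counts per whole astrocyte library and 2318745 to 13445661 per endfeet library, and endfeet library 6 was the smallest. A floor of 3 counts, the least taken as shown, equals 0.0690 to 0.0834 CPM (counts scaled to a common library total) and 0.223 to 1.29 CPM respectively. The common dispersion, a measure of spread between libraries, was 0.0141 among whole astrocyte libraries and 0.704 among endfeet libraries. The 8 astrocyte genes on the marker list summed to 23145 to 24943 CPM in whole astrocyte TRAP and 10880 to 29676 in endfeet TRAP, and 1 of them was higher in endfeet TRAP, 3 were lower, while 4 missed the threshold. All 8 endothelial, 8 mural and 7 fibroblast markers were higher in endfeet TRAP. Endothelial markers summed to 2584 to 5353 CPM there against 5.56 to 8.08. The part of these cells in the values below was not tested.

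All 9 genes were measured and passed the filter on low counts. Of these, 7 were higher in endfeet TRAP than in whole astrocyte TRAP, 0 were lower, and P2ry12 and Aif1 did not pass the test (edgeR, p adjusted over 14403 genes, threshold 0.05). In this fit of all 9 libraries no log2 fold change of the 9 was below 0, so that 0 were lower at an unadjusted p as well, and DESeq2 and limma voom also called 0 lower. Among all genes tested, 20.7% were higher and 13.9% were lower, 34.6% in either direction. The 9 genes had a median log2 fold change of 3.58, against 0.10 over all genes tested. The count was 5 without whole astrocyte library 1 and 4 without library 2 or 3. The count over all genes fell as well, from 2987 to 1956, 1757 and 1942 without library 1, 2 and 3. Both groups share the same estimate of the spread between libraries in this test. The same 7 genes were above every whole astrocyte library in every endfeet library, as were 18.9% of all genes tested, and none of the 9 was below them in each endfeet library, as were 23.8%. In bulk RNA, fewer cells of a type and less RNA per cell cannot be told apart.

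**Figure D1:**
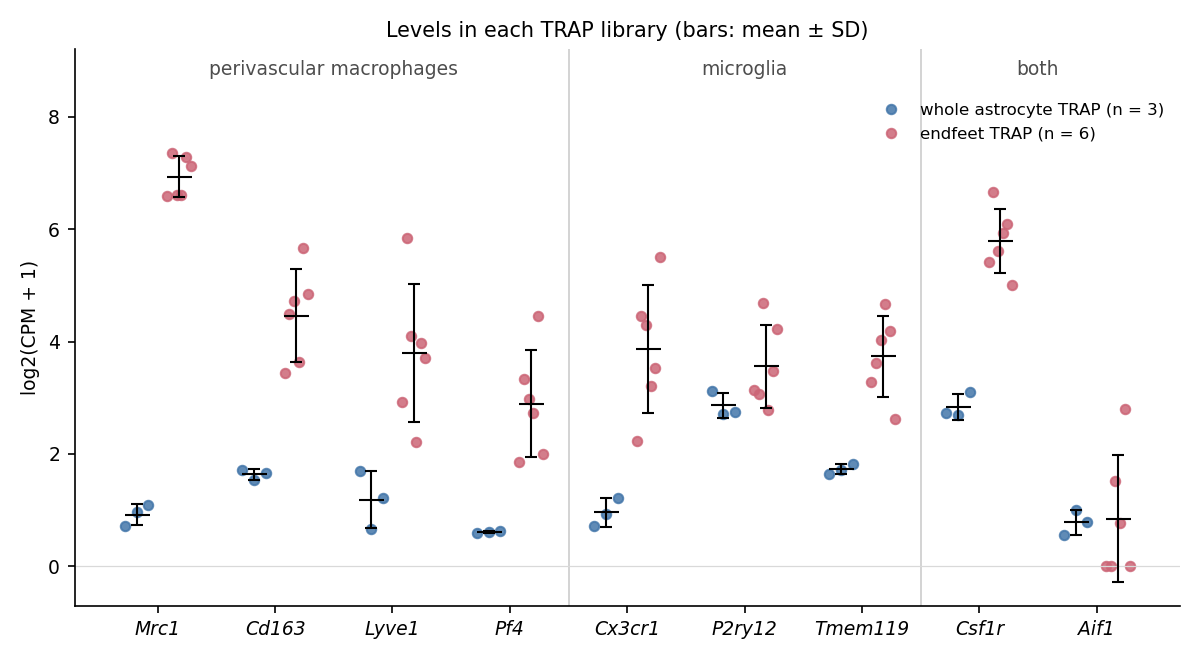
Level of each gene in each library, as log2(CPM + 1), with whole astrocyte TRAP (3 libraries) and endfeet TRAP (6 libraries) side by side and bars for mean ± SD on that scale. The groups are apart for 7 genes and overlap for P2ry12 and Aif1.

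The sequence before start sites of the 9 genes was also read for a motif of macrophage genes. PU.1 (gene Spi1), the transcription factor that macrophages need, binds ETS-type motifs. The letters GGAAGT were searched on both strands in RefSeq promoter windows (GRCm38.p6), which were present for 6 of the 9 genes and not for Lyve1, Tmem119 and Csf1r. Mrc1, Pf4 and P2ry12 held the letters in their window of at most 250 bases, and Cd163, Cx3cr1 and Aif1 did not. The windows of Mrc1, Pf4 and Cx3cr1 adjoin the start of the transcript counted here. Those of Cd163, P2ry12 and Aif1 do not. Of 32851 windows over all genes, 19.7% held them. The 3 windows with a match are shown in the direction of transcription, with the match in capitals.
Mrc1, chr2:14229164-14229391, plus strand: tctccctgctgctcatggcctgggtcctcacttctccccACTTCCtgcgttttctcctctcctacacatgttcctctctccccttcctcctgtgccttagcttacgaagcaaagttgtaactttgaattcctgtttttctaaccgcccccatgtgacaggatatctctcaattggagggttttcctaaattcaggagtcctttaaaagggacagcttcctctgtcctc
Pf4, chr5:90772185-90772434, plus strand: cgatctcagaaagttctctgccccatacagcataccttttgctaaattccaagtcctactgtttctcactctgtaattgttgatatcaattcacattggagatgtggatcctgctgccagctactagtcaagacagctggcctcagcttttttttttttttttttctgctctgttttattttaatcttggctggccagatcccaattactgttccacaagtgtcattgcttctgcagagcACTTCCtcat
P2ry12, chr3:59262986-59263235, minus strand: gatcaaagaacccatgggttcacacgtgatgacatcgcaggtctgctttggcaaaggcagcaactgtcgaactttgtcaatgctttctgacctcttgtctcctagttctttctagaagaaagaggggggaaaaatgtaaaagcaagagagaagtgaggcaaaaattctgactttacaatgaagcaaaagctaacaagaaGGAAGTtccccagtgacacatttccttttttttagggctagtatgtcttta

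In Mrc1 and Pf4 the letters lie on the opposite strand, starting 189 and 10 bases before the end of the window, and in P2ry12 they lie on the gene's own strand, 51 bases before it. Such a match is a description of the sequence only. Mrc1 and Pf4 were higher in endfeet TRAP and P2ry12 did not pass the test, and of the windows without a match, Cd163 and Cx3cr1 were higher and Aif1 did not pass. Spi1 itself, added here for its link to the motif, was at 0.961 ± 0.774 CPM (SD, n = 6) in endfeet TRAP and 0.296 ± 0.0854 CPM (SD, n = 3) in whole astrocyte TRAP, and did not pass the test (adjusted p = 0.26, edgeR).

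All 4 perivascular macrophage genes were higher in endfeet TRAP, with a median log2 fold change of 3.88. Mrc1, the mannose receptor CD206, takes up glycoproteins and is a defining marker of these cells. It lies on chromosome 2 (14229392 to 14332057, plus strand, mm10), and the transcript counted has 30 exons and 5374 bases. Its level was 0.640, 0.944 and 1.13 CPM in the whole astrocyte libraries, and in endfeet TRAP the lowest was 95.3 CPM, the median 118 and the highest 164. Each endfeet library was far above each whole astrocyte library. The means were 124 ± 31.8 CPM (SD, n = 6) and 0.904 ± 0.246 CPM (SD, n = 3), and the log2 fold change was 7.18 (SE 0.477, adjusted p = 3.4e-07, edgeR). Of all genes tested, 1.53% had a larger one. Mrc1 was also the steadiest of the 9 genes across endfeet libraries, with a coefficient of variation of 25.6%.

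Cd163, the receptor that clears haemoglobin bound to haptoglobin, lies on chromosome 6 (124304656 to 124330527, plus strand). It was at 2.28, 1.89 and 2.16 CPM in the whole astrocyte libraries and at 9.83 (lowest), 23.4 (median) and 49.6 CPM (highest) in endfeet TRAP. The groups did not overlap, although the endfeet libraries spanned a 5.04-fold range, with libraries 1 and 4 at its lower end and library 5 at the top. Its log2 fold change was 3.58 (SE 0.711, adjusted p = 0.0018, edgeR).

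Lyve1, a hyaluronan receptor that marks a subset of perivascular macrophages as well as lymphatic vessels, lies on chromosome 7 (110850607 to 110863239, minus strand). It was at 2.23, 0.583 and 1.31 CPM in the whole astrocyte libraries and at 3.63 (lowest), 13.4 (median) and 56.4 CPM (highest) in endfeet TRAP. Endfeet library 2 held the highest value, and library 4, the lowest, was still above each whole astrocyte library. The mean in endfeet TRAP was 18.3 ± 19.3 CPM (SD, n = 6), an SD larger than the mean. The log2 fold change was 3.78 (SE 1.01, adjusted p = 0.011, edgeR). It was 3.07 without endfeet library 2 and 2.83 with only endfeet libraries 4 to 6, and the adjusted p rose to 0.073 without whole astrocyte library 2 and to 0.058 without library 3.

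Pf4, platelet factor 4, is a chemokine made by megakaryocytes and also by macrophages of the brain's borders. This short gene of 3 exons lies on chromosome 5 (90772435 to 90773383, plus strand). It was at 0.501, 0.528 and 0.552 CPM in the whole astrocyte libraries, and at 2.61 (lowest), 6.26 (median) and 21.0 CPM (highest) in endfeet TRAP. The groups did not overlap, but the lowest endfeet values rest on few counts, 17 in library 1 and 7 in library 6. The log2 fold change was 3.98 (SE 1.01, adjusted p = 0.0085, edgeR). It was 3.30 without endfeet library 5, and the adjusted p lay between 0.055 and 0.062 when any 1 whole astrocyte library was left out.

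Other genes of platelets and lymphatic vessels bear on Pf4 and Lyve1. Of 10 platelet and megakaryocyte genes, 3 had enough counts to test. Ppbp, a platelet chemokine next in kind to Pf4, was higher in endfeet TRAP at 29.9 ± 47.7 CPM (SD, n = 6) against 0.154, whereas Gp1bb and Gp1ba did not pass the test, and Treml1 was at 0 in every library. The platelet list summed to 14.2 to 154 CPM in endfeet TRAP and 52.8 to 55.0 CPM in whole astrocyte TRAP. Most of the whole astrocyte sum was Gp1bb, at 52 ± 1.25 CPM (SD, n = 3). In endfeet TRAP Gp1bb was at 22.2 ± 14.1 CPM (SD, n = 6), so the sums do not compare the rest of the list. Of 6 lymphatic genes, 3 were higher, among them Flt4 and Reln, Prox1 and Pdpn did not pass the test, and Ccl21a was at 0 in every library. The lymphatic list summed to 141 to 318 CPM against 91.3 to 94.4. Prox1 (55.4 CPM) and Pdpn (28.5 CPM) made up most of the whole astrocyte sum. In endfeet TRAP they were at 25.9 ± 21.7 and 57.7 ± 33.9 CPM (SD, n = 6). Which cells the genes of these lists came from was not tested. What share of Pf4 or Lyve1 came from platelets or lymphatic vessels was not tested either.

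Of the 3 microglial genes, 2 were higher in endfeet TRAP, and their median log2 fold change was 2.63. Cx3cr1, the receptor for the neuronal chemokine fractalkine, lies on chromosome 9 (119901616 to 120069879, minus strand). It was at 0.640, 0.916 and 1.33 CPM in the whole astrocyte libraries and at 3.69 (lowest), 14.5 (median) and 44.4 CPM (highest) in endfeet TRAP. Library 6 was the highest and library 1 the lowest, and the groups did not overlap. The log2 fold change was 4.26 (SE 0.951, adjusted p = 0.0039, edgeR).

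Tmem119, a membrane protein used to tell microglia from other macrophages, lies on chromosome 5 (113793729 to 113800516, minus strand). It was at 2.14, 2.28 and 2.53 CPM in the whole astrocyte libraries and at 5.18 (lowest), 13.3 (median) and 24.4 CPM (highest) in endfeet TRAP. The groups did not overlap, and the lowest value, in library 6, came from 12 counts. The log2 fold change was 2.63 (SE 0.742, adjusted p = 0.015, edgeR). The adjusted p was 0.073 to 0.094 when any 1 whole astrocyte library was left out.

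P2ry12, the receptor through which microglia sense ADP released at sites of injury, was the exception. It lies on chromosome 3 (59216272 to 59262871, minus strand), inside the span of Med12l. It was at 7.68, 5.58 and 5.73 CPM in the whole astrocyte libraries and at 5.84 (lowest), 8.98 (median) and 24.6 CPM (highest) in endfeet TRAP, and the groups overlapped. The means were 12.2 ± 7.35 CPM (SD, n = 6) and 6.33 ± 1.17 CPM (SD, n = 3). The log2 fold change of 1.0 (adjusted p = 0.28, SE 0.687, edgeR) did not pass the test. Of the 6 endfeet libraries, 4 lay above each whole astrocyte library and 0 lay below each of them.

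Of the genes found in both cell types, Csf1r was higher and Aif1 was not called. Csf1r, the receptor for Csf1 and Il34, lies on chromosome 18 (61100598 to 61132149, plus strand). It was at 5.62, 5.44 and 7.63 CPM in the whole astrocyte libraries and at 31.1 (lowest), 54.2 (median) and 101 CPM (highest) in endfeet TRAP. Library 2 was the highest, library 6 the lowest, and the groups did not overlap. The log2 fold change was 3.30 (SE 0.496, adjusted p = 0.00022, edgeR).

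Aif1, on chromosome 17 (35170991 to 35176068, minus strand), was close to the limit of detection. It was at 0.473, 1.0 and 0.736 CPM in whole astrocyte TRAP, from 17 to 36 counts. In endfeet TRAP it had 0 counts in libraries 1, 2 and 6, which allows up to 0.461, 0.347 and 1.29 CPM, and 1.88, 0.710 and 5.95 CPM in libraries 3, 4 and 5. Endfeet libraries lay on both sides of the whole astrocyte libraries. The log2 fold change was 1.02 (SE 1.5, adjusted p = 0.63, edgeR), and its sign turned with limma voom (-0.42) and with endfeet libraries 1 to 3 only (-0.20). The endfeet libraries thus differed more among themselves than the group means did.

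**Figure D2:**
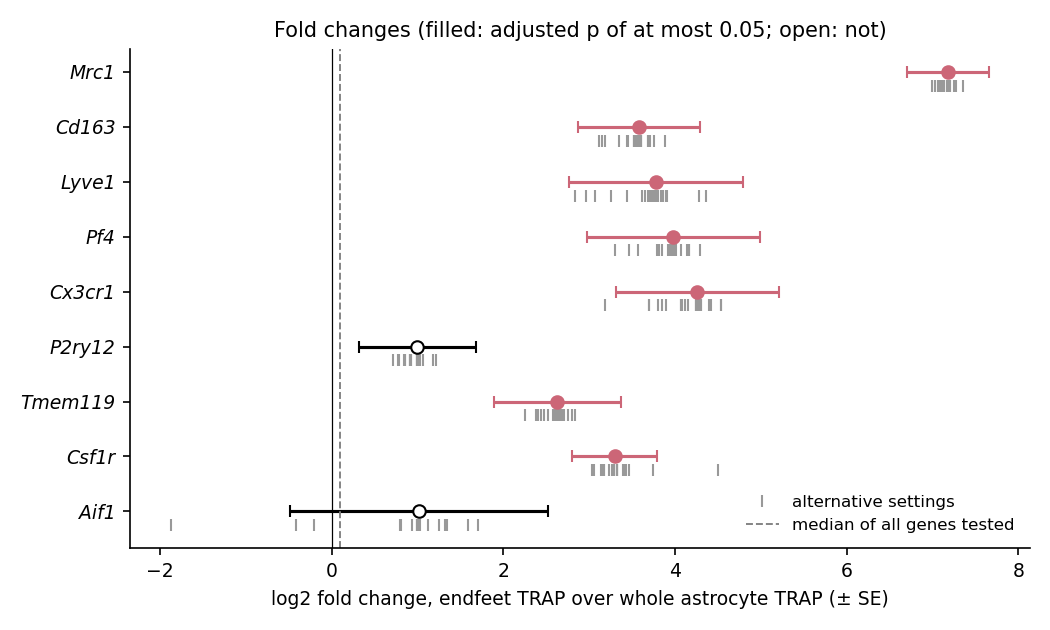
Log2 fold change of endfeet TRAP over whole astrocyte TRAP for each gene, with bars for 1 SE, filled points for genes past the threshold, small ticks for alternative settings and a dashed line for the median of all genes tested. Mrc1 stands at 7.18, the other genes past the threshold lie between 2.63 and 4.26, and ticks of Aif1 fall on both sides of 0.

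Levels of different genes were compared per kilobase of the transcript counted. In endfeet TRAP the order was Mrc1 (23.1 ± 5.91 CPM per kb, SD, n = 6), Pf4 (13.7 ± 11.5), Csf1r (12.4 ± 5.20), Lyve1 (6.31 ± 6.67), Tmem119 (6.10 ± 3.03), Cd163 (5.45 ± 3.24), P2ry12 (5.44 ± 3.27), Cx3cr1 (4.72 ± 3.89) and Aif1 (1.68 ± 2.76). The ranges of each gene and the next overlapped throughout this order, and Csf1r was above Lyve1 within all 6 libraries. In whole astrocyte TRAP the order was led by P2ry12 (2.81 ± 0.520 CPM per kb, SD, n = 3), then Csf1r (1.33 ± 0.259), Tmem119 (1.03 ± 0.0878), Pf4 (0.896 ± 0.0436) and Aif1 (0.869 ± 0.311). Cd163 (0.475 ± 0.0453), Lyve1 (0.475 ± 0.284), Cx3cr1 (0.257 ± 0.0931) and Mrc1 (0.168 ± 0.0458) followed. There the ranges of Pf4 and Aif1, and those of each neighbouring pair from Cd163 down to Mrc1, overlapped, and the other neighbours did not. The place of Csf1r depends on its transcript in both groups. Its second transcript lacks a stretch shared with another gene. On it, Csf1r was at 0.657 ± 0.197 CPM per kb (SD, n = 3) in whole astrocyte TRAP. That is below Tmem119 and within reach of Pf4, Aif1, Cd163 and Lyve1. In endfeet TRAP it was at 14.1 ± 6.35 CPM per kb (SD, n = 6), a mean above that of Pf4. Mrc1 was last in whole astrocyte TRAP and first in endfeet TRAP.

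The balance between the macrophage and the microglial genes was then read within each library, where scaling between libraries plays no role. The summed level of Mrc1, Cd163, Lyve1 and Pf4 was 5.65, 3.94 and 5.15 CPM in whole astrocyte TRAP and 114 (lowest), 163 (median) and 251 CPM (highest) in endfeet TRAP. That of Cx3cr1, P2ry12 and Tmem119 was 10.5, 8.77 and 9.59 CPM, and 20.3 (lowest), 39.1 (median) and 67.3 CPM (highest). The microglial sum was the larger in each whole astrocyte library, and the macrophage sum in each endfeet library. In whole astrocyte TRAP that order rested on P2ry12. Without it the microglial sum was 2.78, 3.19 and 3.86 CPM, below the macrophage sum in all 3 libraries.

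The ratio of macrophage to microglial sum was 0.540, 0.449 and 0.537 in whole astrocyte TRAP. In endfeet libraries 1 to 6 it was 5.64, 6.30, 2.49, 3.04, 6.36 and 2.70, a mean of 4.42 ± 1.86 (SD, n = 6). Levels per kilobase gave 1.81 to 5.41 in endfeet TRAP and 0.454 to 0.518 in whole astrocyte TRAP. Leaving out P2ry12 gave 3.58 to 9.19 in endfeet TRAP and 1.23 to 2.03 in whole astrocyte TRAP. Much of the excess in endfeet TRAP rested on Mrc1. Without Mrc1 the ratio was 0.536 to 2.26 in endfeet TRAP and above 1 in libraries 2 and 5 only, against 0.342 to 0.479 in whole astrocyte TRAP. The groups did not overlap with either gene left out. No test is given, since the genes were chosen with their results known.

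**Figure D3:**
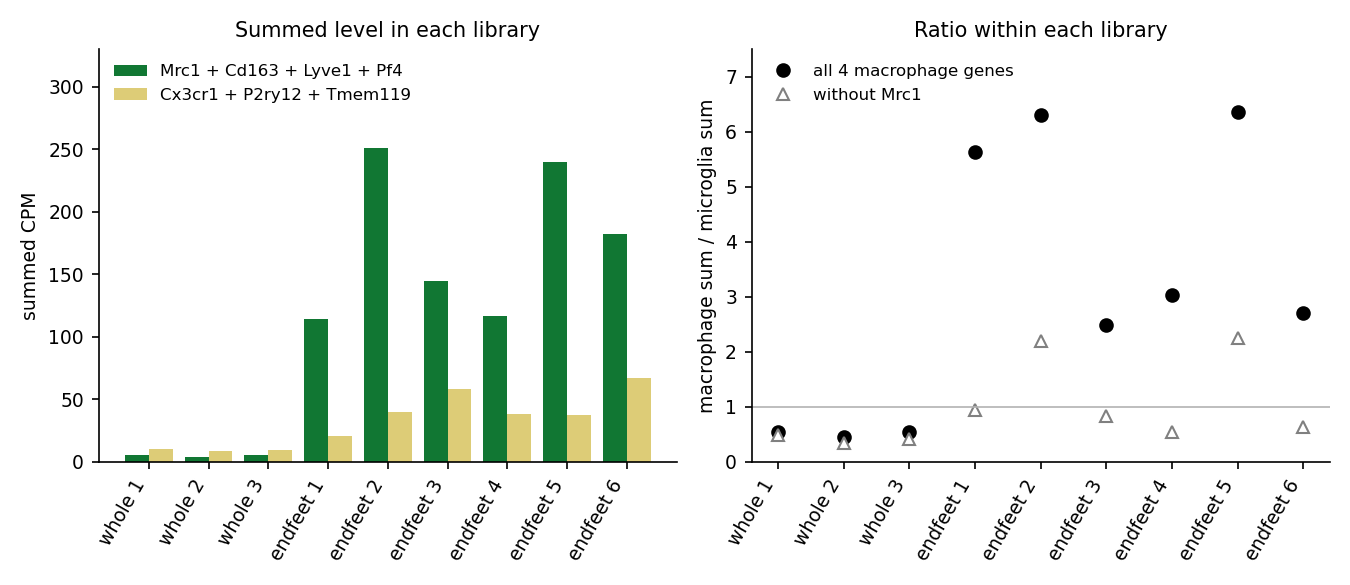
Left, summed CPM of the 4 macrophage genes and of the 3 microglial genes in each library. Right, the ratio of these sums within each library with and without Mrc1, with a line at 1. With Mrc1 the endfeet libraries lie between 2.49 and 6.36 and the whole astrocyte libraries between 0.449 and 0.540.

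The endfeet libraries did not rank the 9 genes alike. Library 2 was the highest for Mrc1, Lyve1 and Csf1r, library 5 for Cd163, Pf4 and Aif1, library 3 for P2ry12, library 4 for Tmem119 and library 6 for Cx3cr1. Library 6, of the least depth, was thus the highest for 1 microglial gene and the lowest for another, Tmem119, and for Csf1r. By the numbers their files carry, endfeet libraries 1 to 3 form one series and endfeet libraries 4 to 6 and all whole astrocyte libraries another. The meaning of these numbers is not given. For all 9 genes the ranges of endfeet libraries 1 to 3 and 4 to 6 overlapped. With endfeet libraries 4 to 6 only, and with libraries 1 to 3 only, the count of genes higher in endfeet TRAP was again 7.

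Other genes were ranked by how closely their log2(CPM + 1) after TMM normalization followed each of the 9 genes over the 6 endfeet libraries, among 11619 genes. These were the genes tested with a mean of at least 5 CPM in endfeet TRAP, so Aif1 could not be found as a match. The closest was Azi2 for Mrc1 (Pearson's r = 0.979), Hsdl1 for Cd163 (0.972), Ptpn11 for Lyve1 (0.974) and Lyn for Pf4 (0.992). It was Bend3 for Cx3cr1 (0.997), Dgat1 for P2ry12 (0.962), Ltv1 for Tmem119 (0.993), Magt1 for Csf1r (0.982) and Ppp4c for Aif1 (0.979). The second closest were Mctp1, Cldn11, Dido1, Slc6a12, Mrpl18, Acsl5, Lmo3, Tgfb3 and Stambpl1 in the same order of genes. None of the 9 genes had another of them among its closest 2, which in so wide a search does not show that they vary apart. With 6 points that share a depth each, and this many genes searched, such values are a description only.

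For Cx3cr1 and Csf1r the value depends on which transcript is counted, because each gene was represented by its most counted transcript. The Cx3cr1 transcript used differs from the second coding transcript mainly by the last 596 bases of its 3' untranslated region (chr9:120048683-120049278, mm10, minus strand). The share of its counts found only in the part of its own was at least 29.2%, 42.3%, 90.7%, 18.3%, 79.4% and 63.1% in endfeet libraries 1 to 6, and 43.5%, 9.1% and 6.9% in the whole astrocyte libraries. Libraries 3, 5 and 6 thus drew most of their Cx3cr1 counts from the far end of the transcript. On the second transcript Cx3cr1 was at 1.73 to 16.4 CPM in endfeet TRAP and 0.362 to 1.24 in whole astrocyte TRAP, still without overlap, and the log2 fold change was 3.18 (adjusted p = 0.041, edgeR).

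For Csf1r the imbalance ran the other way. Its transcript ends in 1015 bases absent from the second coding transcript (chr18:61131135-61132149, plus strand), and 873 of these are shared with exons of Hmgxb3 on the opposite strand. Whether the counting used strand is not stated. The libraries were made from amplified, fragmented cDNA, and the paper describes no step that keeps the strand. Without strand, reads of the pair cannot be told apart there, however they are counted. In whole astrocyte TRAP at least 59.4%, 64.3% and 55.4% of Csf1r counts were found only in this stretch. The same lower bound was 0% to 6.4% in endfeet libraries 1 to 5 and 31.9% in library 6. It is a bound because the second transcript has bases of its own, whose reads are subtracted as well. Hmgxb3 was at 15.6 to 19.4 CPM in whole astrocyte TRAP and 9.17 to 19.7 CPM in endfeet libraries 1 to 5, and at 64.3 CPM in endfeet library 6, and its part in the Csf1r counts was not tested. Without that stretch Csf1r was at 1.94 to 3.40 CPM in the whole astrocyte libraries and at 21.1 to 94.1 CPM in endfeet TRAP, with a log2 fold change of 4.5 (adjusted p = 7.9e-05, edgeR).

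**Figure D4:**
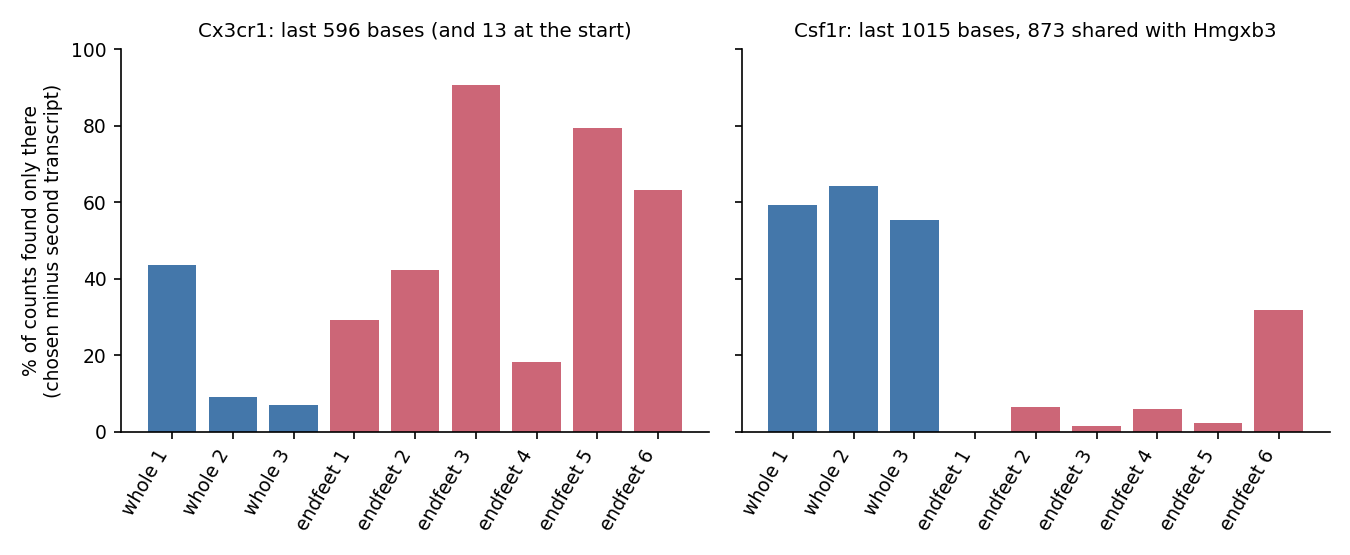
Lower bound of the percentage of counts of Cx3cr1 and of Csf1r in each library that lie only in the part of the chosen transcript that the second coding transcript lacks. For Cx3cr1 the bound is 63.1% to 90.7% in endfeet libraries 3, 5 and 6, and for Csf1r it is 55.4% to 64.3% in whole astrocyte libraries and 0% to 6.4% in endfeet libraries 1 to 5.

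Further genes of the same cells were read from lists that leave out the 9 genes. Of 13 genes of perivascular macrophages tested, 10 were higher and 3 missed the threshold, and the list had a median log2 fold change of 4.51. The list summed to 346 to 831 CPM in endfeet TRAP and 64.7 to 88.7 CPM in whole astrocyte TRAP. Its most counted genes in endfeet TRAP were Dab2, an endocytic adaptor, at 281 ± 72.5 CPM against 65.0, Colec12, a scavenger receptor, at 201 ± 57.4 CPM against 5.49, and F13a1, the coagulation factor XIII A chain, at 44.7 ± 32.4 CPM against 2.47 (SD, n = 6). Dab2 and Colec12 are made by other vascular and meningeal cells as well. Without whole astrocyte library 1 or 3 the count of genes higher was 6. Some genes passed the filter on low counts through endfeet TRAP alone. Siglec1, Ccl24, Cd209f and Fcna had 198, 165, 264 and 188 counts over all endfeet libraries. Over the whole astrocyte libraries they had 1, 3, 5 and 9. Such genes could hardly be found lower. With at least 10 counts required in every library, 4 genes of the list were higher.

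The microglia list was mixed. Of its 12 genes tested, 5 were higher and 2 lower, 5 missed the threshold, and the list had a median of 3.01, and its sum was 120 to 271 CPM in endfeet TRAP against 94.1 to 121. Olfml3, a secreted protein, was at 48.0 ± 22.7 CPM (SD, n = 6) against 4.2. Fcrls, an Fc receptor-like protein, was at 27.3 ± 17.9 CPM (SD, n = 6) against 1.07. Sall1, a transcription factor of microglial identity that is also active in other neural cells, was lower, at 23.1 ± 13.9 CPM (SD, n = 6) against 83.2 (log2 fold change -1.80, adjusted p = 0.017, edgeR), and Crybb1, a crystallin, was lower at 0.0999 ± 0.208 CPM (SD, n = 6) against 1.37, from 8 counts over all endfeet libraries. Without whole astrocyte library 2 the count of genes higher was 3, and it was 3 as well with at least 10 counts in every library.

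Genes shared by macrophages of many tissues were largely higher. Of 20, 15 were higher, 5 missed the threshold, and the list had a median of 4.08, and the list summed to 255 to 609 CPM against 28.8 to 38.6. Lyz2, lysozyme, was at 97.2 ± 39.6 CPM (SD, n = 6) against 1.80, C1qc at 36.2 ± 16.5 CPM against 1.93 and C1qb at 35.3 ± 23.5 CPM against 3.09. C1qb and C1qc encode chains of the first complement component. Without whole astrocyte library 2 or 3, 9 of the 20 were higher, and with at least 10 counts in every library 6 were. All 4 MHC class II genes tested were higher, among them Cd74, the invariant chain, at 96.7 ± 48.3 CPM (SD, n = 6) against 1.05, H2-Aa and H2-Ab1. With at least 10 counts in every library, 2 genes of that list were higher.

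Transcription factors of macrophages followed less clearly. Of 10 tested, 3 were higher and 1 lower, 6 missed the threshold, and the list had a median of 1.30. Mef2c, which neurons and endothelium also use, was at 551 ± 220 CPM (SD, n = 6) against 279, and Maf at 40.6 ± 14.2 CPM against 15.2. Cebpa was lower, at 1.18 ± 0.968 CPM (SD, n = 6) against 33.5 (log2 fold change -4.74, adjusted p = 0.00072, edgeR). The count of factors higher was 0 without any 1 of the whole astrocyte libraries and without endfeet library 5, and 1 without endfeet library 4.

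The ligands of the receptors described here were measured in the same libraries. Of 10 ligands, enzymes and partner proteins tested, 9 were higher. Hmox1, which breaks down haem of the kind taken up through Cd163, did not pass (log2 fold change -1.47, adjusted p = 0.15, edgeR). Its groups were apart all the same, with at most 21.1 CPM in endfeet TRAP and at least 23.4 CPM in whole astrocyte TRAP. Csf1 and Il34, the ligands of Csf1r, were at 98.6 ± 47.7 CPM against 10.7 and at 25.2 ± 12.1 CPM against 7.47. The ligand of Cx3cr1, Cx3cl1, was at 100 ± 36.9 CPM against 36.4. These ligands are named because their receptors are described here, and their values had been seen. The most counted genes of the list were Cd47, the signal that holds back phagocytosis, at 813 ± 70.3 CPM against 182, Entpd1, the ectoenzyme that breaks down the ATP and ADP sensed by P2ry12, at 400 ± 86.4 CPM against 36.1, and Sirpa, the receptor of Cd47, at 255 ± 48.9 CPM against 144. Many of these are also made by astrocytes, endothelium or neurons. With 1 whole astrocyte library left out, 4 or 5 of the list were higher.

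Blood cells that share markers with macrophages were read the same way. Of 3 monocyte genes tested, Fn1 and Ly6c1 were higher and Ccr2 did not pass the test. Fn1 and Ly6c1 are also made by endothelium, and the more specific Ly6c2, Plac8 and Chil3 were too low to test, with 39, 3 and 8 counts over all endfeet libraries. Of 5 neutrophil genes tested, 4 were higher, led by Ltf at 111 ± 85.7 CPM (SD, n = 6) against 1.27, while Camp, Retnlg and Elane were at 0 in every library. The count was 1 without any 1 of the whole astrocyte libraries and with endfeet libraries 4 to 6 only, and 2 without endfeet library 1 or 4. The neutrophil list summed to 44.3 to 267 CPM against 0.972 to 1.93. Most of the endfeet sum was Ltf, at 42.2 to 266 CPM. S100a9 was at 7.82 ± 8.08 CPM and S100a8 at 2.27 ± 3.23 CPM in endfeet TRAP (SD, n = 6), each with 0 counts in 2 libraries. Of 4 dendritic cell genes tested, 2 were higher, and all 4 red blood cell genes tested were higher, with sums of 37.0 to 141 CPM against 1.59 to 2.94. The part of blood in the levels of the 9 genes was not tested.

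**Figure D5:**
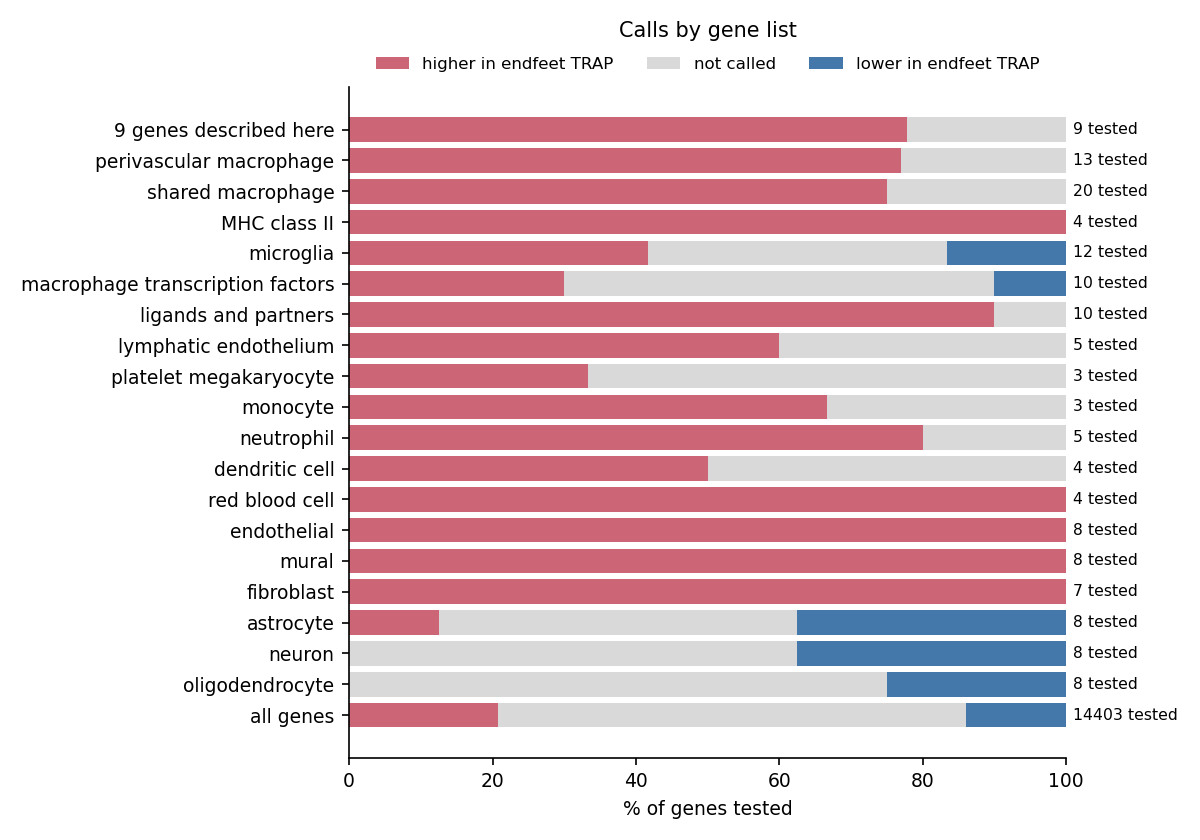
Share of the genes tested in each list that were higher, not called or lower in endfeet TRAP, with the number tested at the right and all genes at the bottom. Genes higher make up 7 of the 9 genes described here, 10 of 13 perivascular macrophage genes and 5 of 12 microglia genes, against 20.7% of all genes. Some list genes passed the filter on low counts through endfeet TRAP alone.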

How the data were processed

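The study measured RNA bound to GFP-tagged ribosomes in 9 libraries. The authors amplified the RNA (NuGEN Ovation), sequenced reads of 50 bp, aligned them to mm10 with Bowtie in the Eoulsan pipeline, discarded reads with several alignments, and counted overlaps with Ensembl 75 by HTSeq 0.5.3. The deposited values are raw counts per transcript, without normalization. Reads without molecular identifiers are not independent molecules, so floors cover counting error only.

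Of 75466 transcripts, 73164 were matched to GENCODE M21 (mm10), and 2302 were left out. A read is counted on each transcript it overlaps, so 1 transcript stood for each gene, the one whose CPM had the largest sum over libraries. Groups, with no covariate, were compared in all 9 libraries with edgeR 4.0.16 (TMM, filterByExpr, glmQLFit, glmQLFTest; R 4.3.3), with Benjamini-Hochberg adjustment over all genes tested and a threshold of 0.05. An SE is the size of the log2 fold change over the root of the F statistic. CPM are not TMM-adjusted, and overlap between groups was judged on TMM-normalized CPM. Other tables used Python 3.11.15.

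The 9 genes and 18 lists with 171 genes were chosen with earlier results of these data known. Named are the 9 genes, of each list discussed the 3 genes with the highest mean CPM in endfeet TRAP and any called against the list's direction, and per gene the 2 most alike in pattern. Csf1, Il34, Cx3cl1, Spi1, Hmox1 and genes at or near 0 fall outside that rule, as does Hmgxb3, and were picked after values were seen. Some genes this rule names are not reported here. For most vessel, brain and blood lists only counts and sums are given.

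Alternatives were DESeq2 1.42.0 with and without its prior, its size factors in edgeR, other filters, the sum or the longest of a gene's transcripts, the library series as covariate, the later series only, the replicate number as a block, group-weighted limma voom (limma 3.58.1), a minimum log2 fold change of 1 in either direction, and each library left out. The second transcripts of Cx3cr1 and Csf1r, endfeet libraries 1 to 3 only, and the ratio without Mrc1 or without P2ry12 were added after the data were seen.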

Additional observations from a re-analysis of the deposited data

Results flagged for a closer look

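In 3 of 10 items tested, 1 endfeet library lay apart from the other 5 by Dixon's test, in which the gap to the nearest library, divided by the range, has a 95% critical value of 0.625 for 6 samples. Chance alone singles out about 1 in 20 groups of normally distributed values. Whether these CPM are so distributed was not tested, so the number of items flagged cannot be set against that rate. Lyve1 was at 56.4 CPM in endfeet library 2, with a gap of 0.765 of the range. Pf4 was at 21.0 CPM in endfeet library 5, with a gap of 0.645. Aif1 was at 5.95 CPM in the same library 5, with a gap of 0.684, from 80 counts. Without these libraries the log2 fold changes of Lyve1 and Pf4 were 3.07 and 3.30, and both were still past the threshold (edgeR). The cause was not tested.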

How the results depend on the processing

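Mrc1, Cd163, Cx3cr1 and Csf1r kept their direction and stayed past the threshold in all 22 alternatives, with log2 fold changes of 7.0 to 7.35, 3.12 to 3.88, 3.18 to 4.54 and 3.03 to 4.5, and P2ry12 stayed short of it (0.72 to 1.21). Genes among the 9 called higher numbered 4 to 7 when 1 library was left out, with 5 without whole astrocyte library 1 and 4 without library 2 or 3, and all genes called higher 1757 to 3375. The mean macrophage to microglia ratio in endfeet TRAP was 4.03 to 4.81 without 1 endfeet library, 1.23 without Mrc1 and 6.19 without P2ry12. Aif1 turned to -0.42 with limma voom and to -0.20 with endfeet libraries 1 to 3 only. All genes called lower numbered 4481 with limma voom, against 2003. The median log2 fold change of all genes, 0.10, was 0.23 with DESeq2, -0.29 with limma voom and -0.16 with endfeet libraries 4 to 6 only. The replicate numbers are not stated to mark a shared animal or day, and deviations of same-numbered libraries correlated at -0.0358, 0.0181 and 0.0382, so they were not taken as pairs. With the replicate block, 6 of the 9 genes and 2496 genes in all were higher (median -0.22), Tmem119 missed the threshold (adjusted p = 0.053, edgeR), and Aif1 was at -1.87. With at least 10 counts in every library, Pf4 and Aif1 were not tested and 6 of the 9 genes were higher. The same filter left 1 monocyte, 1 neutrophil, 1 dendritic cell and 2 red blood cell genes higher. It left 5 endothelial, 6 mural and 6 fibroblast markers higher. The lowest Pf4 and Tmem119 libraries, and the 0 counts of Aif1 in endfeet library 6, rest on little depth.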
